A study of Homo sapiens with 16 samples.

Results

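The 70 replication-dependent histone genes in the count table, out of 19077 genes, were taken as every entry whose symbol begins with HIST1H, HIST2H, HIST3H or HIST4H. They comprised 6 genes for the linker histone H1, 17 for H2A, 18 for H2B, 14 for H3 and 15 for H4. The HIST1 cluster held 55 of them, HIST2 held 11, HIST3 held 3 and HIST4 held 1. All 70 accessions were matched to RefSeq, which now lists HIST1H2BK as H2BC12, HIST1H4C as H4C3, HIST1H1C as H1-2, HIST1H1D as H1-3 and HIST1H1E as H1-4; 55 genes lie on chromosome 6, 14 on chromosome 1 and 1 on chromosome 12.

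Histones H2A, H2B, H3 and H4 form the protein core of the nucleosome around which DNA is wound, and H1 binds the DNA between nucleosomes. The replication-dependent genes are transcribed mainly in S phase, lie in clusters of many near-identical copies, mostly lack introns and give mRNAs that end in a conserved stem-loop rather than a poly(A) tail. The stem-loop is bound by SLBP and is made by cleavage that needs the U7 small nuclear ribonucleoprotein, while some of these genes also give polyadenylated transcripts. HIST1H2BK, HIST1H2BD, HIST1H2AC, HIST1H1C and HIST2H2BE are among the members reported to do so.

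The libraries come from HEK 293, an established line derived from human embryonic kidney, and from the RISC-trap assay, in which a dominant-negative form of GW182 holds target mRNAs on the silencing complex (RISC) so that both are precipitated together. The series asks which mRNAs are recovered with each of 7 miRNAs: mir550-3p, mir3613-5p, mir1301-3p, mir1271-5p, mir1260a-5p and mir1180-3p, with 2 libraries each, and mir124-3p, with 1 library titled Solid and 3 titled Illumina. Every library was a precipitate from cells with 1 of these miRNAs, so the background of each miRNA was the level with the others, and no input RNA was analysed here. The labels name polyA RNA as the molecule and a SOLiD kit for total RNA in all 16 libraries; no source used here says whether a poly(A) selection was made. Label text marks both mir550-3p libraries and one of mir1301-3p with the word bio, and no label says that replicates came from separate cultures, so p-values measure the spread between these libraries, which may be technical.

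The mature sequences of 6 of the 7 miRNAs were found in RefSeq (GRCh38.p14) and are shown because each comparison below is named by one of them. The seed, bases 2 to 8, is in capitals. The label mir1260a-5p was matched to hsa-miR-1260a and mir550-3p to hsa-miR-550a-3p.
mir1180-3p: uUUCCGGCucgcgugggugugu
mir1260a-5p: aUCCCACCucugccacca
mir1271-5p: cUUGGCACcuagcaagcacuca
mir1301-3p: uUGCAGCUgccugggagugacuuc
mir3613-5p: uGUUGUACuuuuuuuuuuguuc
mir550-3p: uGUCUUACucccucaggcacau
The 6 seeds are all different. Transcript sequences of the histone genes were not used here, so no seed match was searched for.

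RefSeq gave promoter windows for 65 of the 70 members, 300 bases from 250 before to 50 after the start of the gene. The octamer ATTTGCAT, searched on both strands, stood in 14 of 18 H2B promoters and 11 of 16 H2A promoters, in 1 of 12 of H3, and in 0 of 6 of H1 and 0 of 13 of H4. Of all 27305 promoters of that length, 1.80% held it. The TATA-box letters TATAAA, on either strand and anywhere in the window, stood in 66.2% of the 65 against 3264 of all 27305. Some of these matches lay far from the start, at 219 bases before it in HIST1H2BM and 189 in HIST1H2BE. CCAAT on either strand stood in 84.6% against 35.7%, with H4 the exception at 3 of 13. The 80 bases before the start are shown for the 3 H2B genes called higher with mir1180-3p, with the octamer and TATAAA in capitals where the window holds them.
HIST1H2BK, chr6:27146859-27146938, minus strand: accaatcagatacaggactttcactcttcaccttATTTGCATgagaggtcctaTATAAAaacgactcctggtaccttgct
HIST1H2BM, chr6:27814942-27815021, plus strand: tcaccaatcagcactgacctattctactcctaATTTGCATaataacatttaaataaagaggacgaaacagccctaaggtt
HIST1H2BE, chr6:26183681-26183760, plus strand: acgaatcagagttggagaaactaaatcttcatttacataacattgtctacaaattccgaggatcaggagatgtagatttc
The octamer began 46 bases before the start in HIST1H2BK and 48 before it in HIST1H2BM. In HIST1H2BE it began 108 bases before the start, outside the printed stretch. These matches describe the letters of the windows and no binding was measured.

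Total counts ran from 7612758 to 26527365 per library. All 10 markers of HEK 293 examined had a median above 1 CPM (counts relative to the library total), with 1098 to 2083 CPM summed over them in each library. Markers of other cell types were summed in the same way: 0.89 to 19.4 CPM for 5 liver genes, 0.57 to 10.9 for 6 blood genes and 38.1 to 107 for 6 neuronal and glial genes. Fibroblast markers averaged 99.8 CPM in the mir1301-3p libraries and 3.47 to 19.3 CPM in the other groups. No marker was at 0 in all libraries. In such bulk precipitates, fewer cells that contain an mRNA and less of that mRNA per cell cannot be told apart. CPM below carry the scaling factors of edgeR (TMM) over all 16 libraries and are not corrected for length.

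Histone mRNAs took 0.182% to 0.377% of all counts in the 12 libraries of the 6 miRNAs, 0.239% in mir124-3p Solid and 0.108% to 0.151% in the 3 Illumina libraries. Most members were scarce. The median over the 16 libraries was above 1 CPM for 27 members and above 10 CPM for 5: HIST1H4C, HIST1H2BK, HIST1H1C, HIST1H2BD and HIST1H1E. A filter on low counts left 46 members for the tests among the 6 miRNAs. The 24 left out were 2 of H1, 3 of H2A, 5 of H2B, 6 of H3 and 8 of H4. None of them exceeded 2.57 CPM or a count of 26 in any of the 16 libraries, and 22 had no count in at least 1 library, where a count of 0 allows up to 0.113 to 0.394 CPM. Limits of this kind, and the intervals of shares, cover counting error only.

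One gene, HIST1H4C, which encodes histone H4, supplied most of the histone reads. It took 81.9% to 87.0% of all member counts in the 10 libraries of the 5 miRNAs other than mir1180-3p, 83.9% in mir124-3p Solid and 69.7% to 77.3% in the Illumina libraries. In the mir1180-3p libraries its share was 41.7% and 39.9%, while HIST1H2BK there held 53.5% and 53.6% of the member counts against 2.50% to 11.1% elsewhere. These are shares of reads, not levels per length. All 14 other H4 genes together reached 6.54 to 26.1 CPM in the 12 libraries, with a median of 14.3 CPM.

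The H2A, H3 and remaining H4 genes with the highest medians were scarce and uneven between replicates. HIST1H2AC, an H2A gene with polyadenylated transcripts, ran from 7.58 to 30.5 CPM over the 12 libraries of the 6 miRNAs. It was at 9.35 and 29.6 CPM with mir1260a-5p, 8.93 and 30.5 with mir1301-3p and 7.58 and 24.3 with mir3613-5p, so that its high libraries were in 3 different groups. HIST1H3D, HIST1H3H and HIST1H3B, which encode H3, ran from 0.72 to 6.49, 0.23 to 4.24 and 0.31 to 5.73 CPM. HIST1H3D overlaps the H2A gene HIST1H2AD in RefSeq, with 627 and 559 counts over all 16 libraries in that order. Which of these overlapping genes the reads came from was not tested. HIST1H3B was at 0.31 and 5.10 CPM within mir1301-3p and at 0.53 and 5.73 within mir1260a-5p. The H4 gene HIST1H4E ran from 1.22 to 6.66 CPM, and HIST1H4H from 0.23 to 4.11. HIST1H4H was at 4.11 and 3.13 CPM with mir1301-3p, above the other 10 libraries of the 6 miRNAs, whose highest value was 2.47, and at 1.79 to 5.04 CPM with mir124-3p. With all libraries in the fit, none of these 6 genes was called in any comparison by edgeR with TMM scaling; HIST1H4H was called higher with mir1301-3p under upper-quartile scaling, and was also among the calls without replicate 2 of mir1260a-5p.

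HIST1H2BK, one of the H2B genes, was far higher with mir1180-3p than with any other miRNA. Its CPM was 1652 and 2013 in the 2 mir1180-3p libraries. Over the other 14 libraries it lay between 68.5 and 157.3 CPM, so that the lower mir1180-3p library stood 10.5-fold above the highest of the rest. By miRNA the levels were 80.8 ± 4.18 CPM with mir1260a-5p, 110 ± 7.18 with mir1271-5p, 69.0 ± 0.666 with mir1301-3p, 86.6 ± 11.3 with mir3613-5p and 129 ± 39.5 with mir550-3p (SD, n = 2 each), and 143 ± 12.3 with mir124-3p Illumina (SD, n = 3) beside 101.4 in the Solid library. In the order of these means the libraries of mir1301-3p lay lowest, below all others, while those of mir1260a-5p and mir3613-5p overlapped, as did those of mir1271-5p and mir550-3p.

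**Figure D1:**
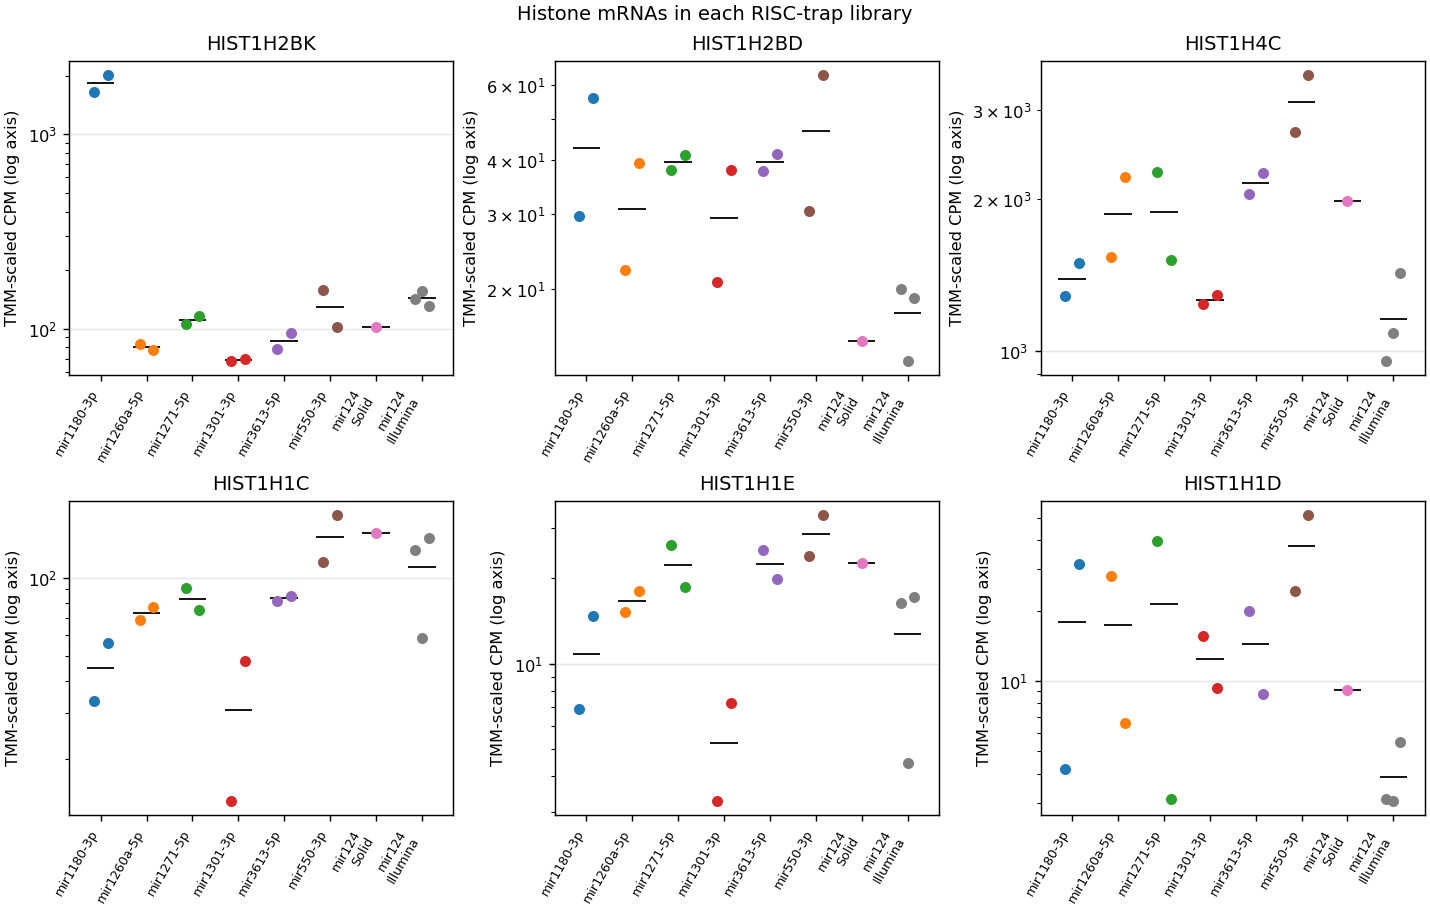
TMM-scaled CPM (log axes, a separate range in each panel) of 6 histone genes by miRNA; points are libraries and bars are group means. HIST1H2BK stands at 1652 and 2013 CPM with mir1180-3p against 68.5 to 157.3 elsewhere, HIST1H2BD shows no such step, and the replicates of HIST1H1D lie far apart.

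For each miRNA the test asked which mRNAs differed from the mean of the other 5 miRNAs, by a two-sided quasi-likelihood test of edgeR, and calls were made at an adjusted p (Benjamini-Hochberg, over every gene tested) under 0.05. With mir1180-3p, 3 of 46 tested members were called, all higher and all of H2B, where 1.92% of all 17658 genes were called higher. HIST1H2BK rose by a log2 fold change of 4.18 ± 0.21 (SE; edgeR adjusted p = 3.5e-09) and was also called in every fit that left out 1 library, at 4.07 to 4.28. HIST1H2BM was at 2.09 and 1.13 CPM with mir1180-3p and at 0.07 to 1.04 CPM in the other 10 libraries, which did not overlap; together with HIST1H2BK it made 2 of 46 members above every reference library, where 3.73% of all genes were. Its log2 fold change was 2.11 ± 0.53 (edgeR adjusted p = 0.0428), on counts of 25 and 10. HIST1H2BE was at 0.25 and 6.21 CPM, from 3 and 55 counts, and at 0 to 1.40 CPM in the others. Only replicate 2 of mir1180-3p and replicate 2 of mir3613-5p, with 55 and 17 counts, reached the filter. HIST1H2BE therefore entered the test through the library where it was high, and its call depends on the filter. Its log2 fold change was 3.60 ± 0.76 (edgeR adjusted p = 0.0139), but the lower library lay inside the range of the rest, and without replicate 2 the value was 0.06 and not called. Leaving out 1 library ended the call of HIST1H2BM in 8 of 12 fits, and DESeq2 called neither of the last 2 genes, whose adjusted p it gave as missing.

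The other 10 tested H2B genes were not called. Without HIST1H2BK, the sum of the H2B genes was 58.4 and 90.2 CPM with mir1180-3p and 42.7 to 87.1 CPM with the other 5 miRNAs, so the groups overlapped. HIST1H2BD, another H2B gene with polyadenylated transcripts, was at 29.6 and 56.0 CPM with mir1180-3p and at 20.7 to 63.2 in the other 10 libraries (log2 fold change 0.09 ± 0.36; edgeR adjusted p = 0.936). HIST2H2BE was at 8.68 and 6.21 CPM against 2.06 to 11.3 (0.35 ± 0.40; edgeR adjusted p = 0.749). Neighbours of HIST1H2BK in the cluster were far scarcer than it. HIST1H2AH, an H2A gene and the next histone gene beyond its start in RefSeq, was at 0.25 and 0.23 CPM with mir1180-3p and at 0.07 to 4.28 in the others. HIST1H4I, whose RefSeq span lies inside that of HIST1H2BK, had 48 counts in all 16 libraries against 58760 for HIST1H2BK. HIST1H4I was at 0.75 and 0.45 CPM with mir1180-3p and at 0 to 0.72 in the others of the 6 miRNAs, and did not enter the test.

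Most members of H1, H2A and H4 had negative values with mir1180-3p, 4 of 4, 13 of 14 and 6 of 7 in that order, and none was called lower by edgeR, where 0.153% of all genes were; DESeq2 called the H4 gene HIST1H4D lower (-2.70; adjusted p = 0.0403). The median log2 fold change was -0.79 over 4 H1 genes, -0.71 over 14 H2A genes, -0.47 over 8 H3 genes, of which 4 lay on each side of 0 (-0.18 with members at 0 set at their bound), and -0.78 over 7 H4 genes, against 0.35 over 13 H2B genes and -0.07 over all genes. Over all 46 it was -0.55, with 31 below 0. The value was -0.40 with the 2 members at 0 in both mir1180-3p libraries set at the bound that 3 counts per library allow. These members, HIST2H3A and HIST2H3C, had equal counts in 16 of 16 libraries and so are not separate measurements. The same holds for HIST2H2AA3 and HIST2H2AA4 among the H2A genes. With copies that share reads counted once, the median over 43 members was -0.40. HIST1H4C was at 1287 and 1497 CPM against 1237 to 3516 in the other 10 libraries (-0.62 ± 0.28; edgeR adjusted p = 0.339). Summed over all 70 members, CPM was 3419 ± 472 with mir1180-3p (SD, n = 2), a log2 ratio of 0.50 to the mean of the other 5 miRNAs, which was -0.55 with HIST1H2BK left out. The sum without that gene was 1434 and 1740 CPM, which overlapped the 1353 and 1509 CPM of mir1301-3p and, at its upper value, the mir1271-5p libraries at 1724 and 2544 CPM. RRM2, a subunit of ribonucleotide reductase, was the single gene called, higher, among 30 S-phase genes with mir1180-3p (1.79 ± 0.29; edgeR adjusted p = 0.00108), and the list median was -0.32.

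**Figure D2:**
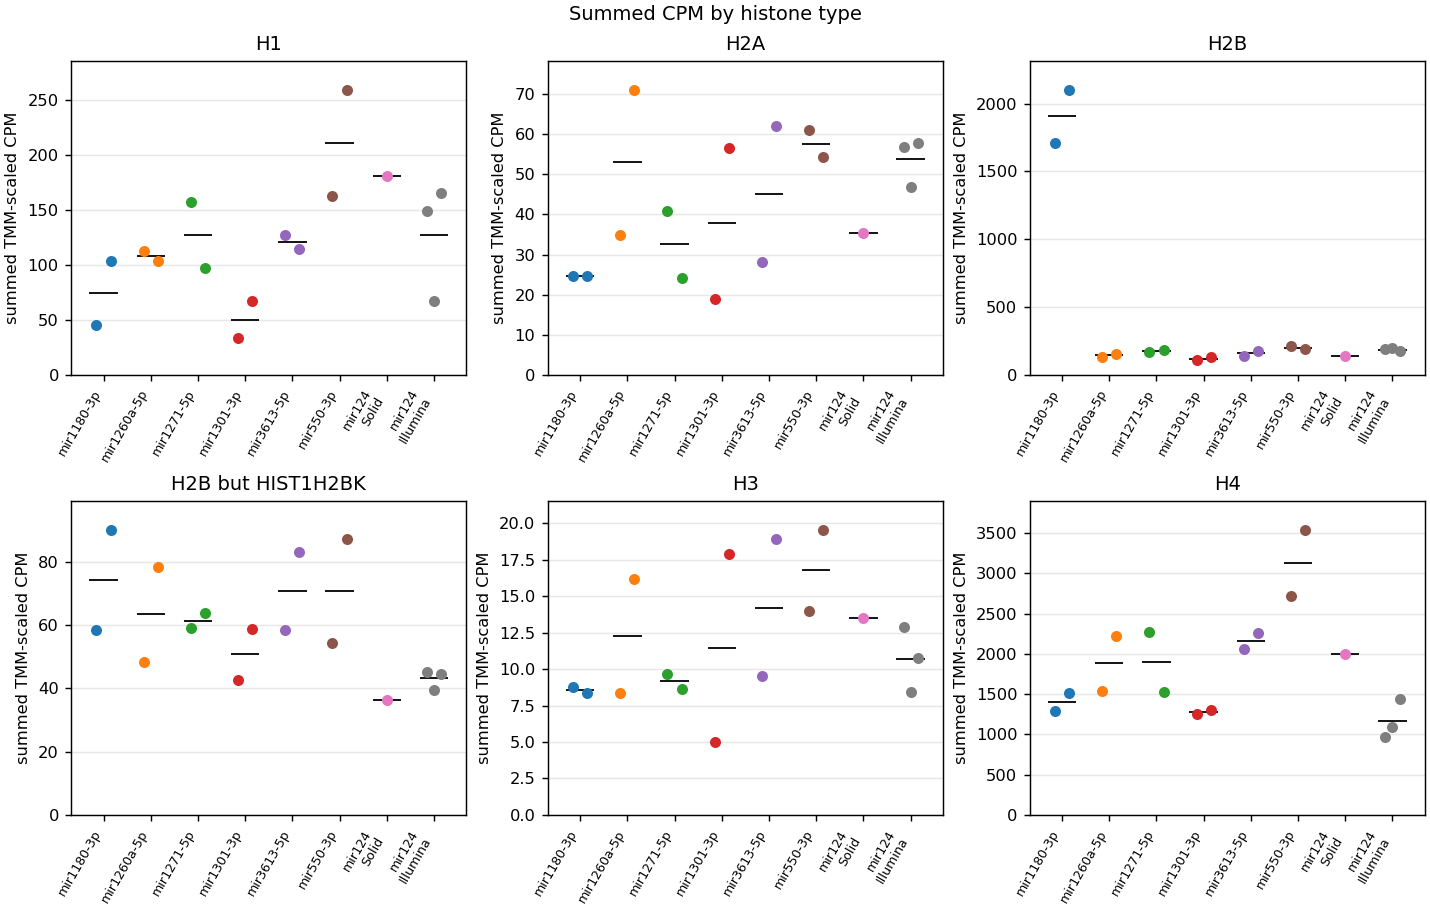
Summed TMM-scaled CPM by histone type, one panel per type and one for H2B without HIST1H2BK; points are libraries, bars are group means and every axis starts at 0. In the panel of H2B without HIST1H2BK the mir1180-3p libraries, at 58.4 and 90.2 CPM, overlap the other groups, and the second is the highest of the 16 libraries by a small margin over the 87.1 CPM of a mir550-3p library.

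With mir1301-3p, 5 of 46 tested members were called, all of them lower, where 4.39% of all genes were called lower and 11.5% higher. They were the linker histone genes HIST1H1C and HIST1H1E, the H2A gene HIST1H2AE and the H2B genes HIST1H2BK and HIST1H2BO. No member was called higher, although 2 members, HIST1H3A and HIST1H4H, had an unadjusted p under 0.05 in that direction, as 22.7% of all genes had. HIST1H2BF, an H2B gene left out by the filter on low counts, had 25 and 5 counts with mir1301-3p and was called higher without that filter (2.28 ± 0.61; edgeR adjusted p = 0.0270), where 6 members were called. The median over the 46 members was 0.02, beside -0.02 over all genes.

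Both called H1 genes encode linker histones that are among the most counted members. HIST1H1E was at 3.29 and 7.25 CPM with mir1301-3p and at 6.93 to 33.3 CPM, with a median of 19.2, in the other 10 libraries. Only the lower mir1180-3p library fell within the mir1301-3p range. The log2 fold change was -1.82 ± 0.43 (edgeR adjusted p = 0.0178). HIST1H1C was at 13.9 and 48.0 CPM against 33.7 to 173 CPM, and fell by 1.32 ± 0.41 on the log2 scale (edgeR adjusted p = 0.0392). Without replicate 1 of mir1301-3p the value was -0.67 and not called. HIST1H1E was also 1 of 2 members, with HIST1H2BK, called in the edgeR test for any difference among the 6 miRNAs, at an adjusted p of 0.0428, where 5.72% of all genes were called; without the mir1180-3p libraries neither was.

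HIST1H2AE was at 0.62 and 0.72 CPM with mir1301-3p and at 0.92 to 7.79 CPM in the other 10 libraries, which did not overlap (-2.08 ± 0.61; edgeR adjusted p = 0.0337). HIST1H2BO had only 1 and 2 counts with mir1301-3p, 0.10 and 0.18 CPM, against 0.14 to 1.84 CPM (-2.64 ± 0.84; edgeR adjusted p = 0.0430). HIST1H2BK lay below every other library, at 68.5 and 69.4 CPM against 77.8 or more, and its log2 fold change was -1.36 ± 0.29 (edgeR adjusted p = 0.0120). The reference of that value holds the mir1180-3p libraries: without them it was -0.59 (edgeR adjusted p = 0.150), and 5 members were again called lower, the other 4 together with HIST1H2BG. HIST1H2BG was at 1.54 and 1.88 CPM, below the 2.0 to 7.70 CPM of the rest (-1.57 ± 0.55; edgeR adjusted p = 0.0584 with mir1180-3p in the reference). In all, 4 of 46 members lay below every reference library, HIST1H2BG, HIST1H2BL, HIST1H2BK and HIST1H2AE, where 7.52% of all genes did.

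The scaling bore on these calls. With upper-quartile scaling the median of all genes for mir1301-3p moved from -0.02 to 0.38, and 5 members were called, 3 of them higher (HIST2H2BE, HIST1H3A and HIST1H4H) and 2 lower (HIST1H1E and HIST1H2BK). Over all genes, upper-quartile scaling turned 2039 higher and 776 lower calls into 4216 and 222, and DESeq2 gave 1356 and 1674, with 7 members lower. Without replicate 1 of mir1301-3p no member was called, without replicate 2 there were 2, without replicate 1 of mir1180-3p 3, and without either library of mir1260a-5p 8. Where members were called, the calls were of both directions, since HIST1H2BF passed the filter in these fits and was called higher. HIST1H2BF passed only through replicate 1 of mir1301-3p, where it was high, with 25 counts against 1 to 7 in the other libraries. Its calls therefore depend on the filter. In the mir1301-3p libraries all 6 fibroblast markers (collagen genes COL1A1, COL1A2 and COL3A1 among them) were called higher by edgeR, with a median log2 fold change of 2.68, as were 2 of 6 blood and 1 of 6 neuronal and glial markers. Of 30 genes active in S phase, 6 were called lower with mir1301-3p, RRM2 and GINS3 among them, with a list median of -0.68. The part of either in the histone values was not tested.

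**Figure D3:**
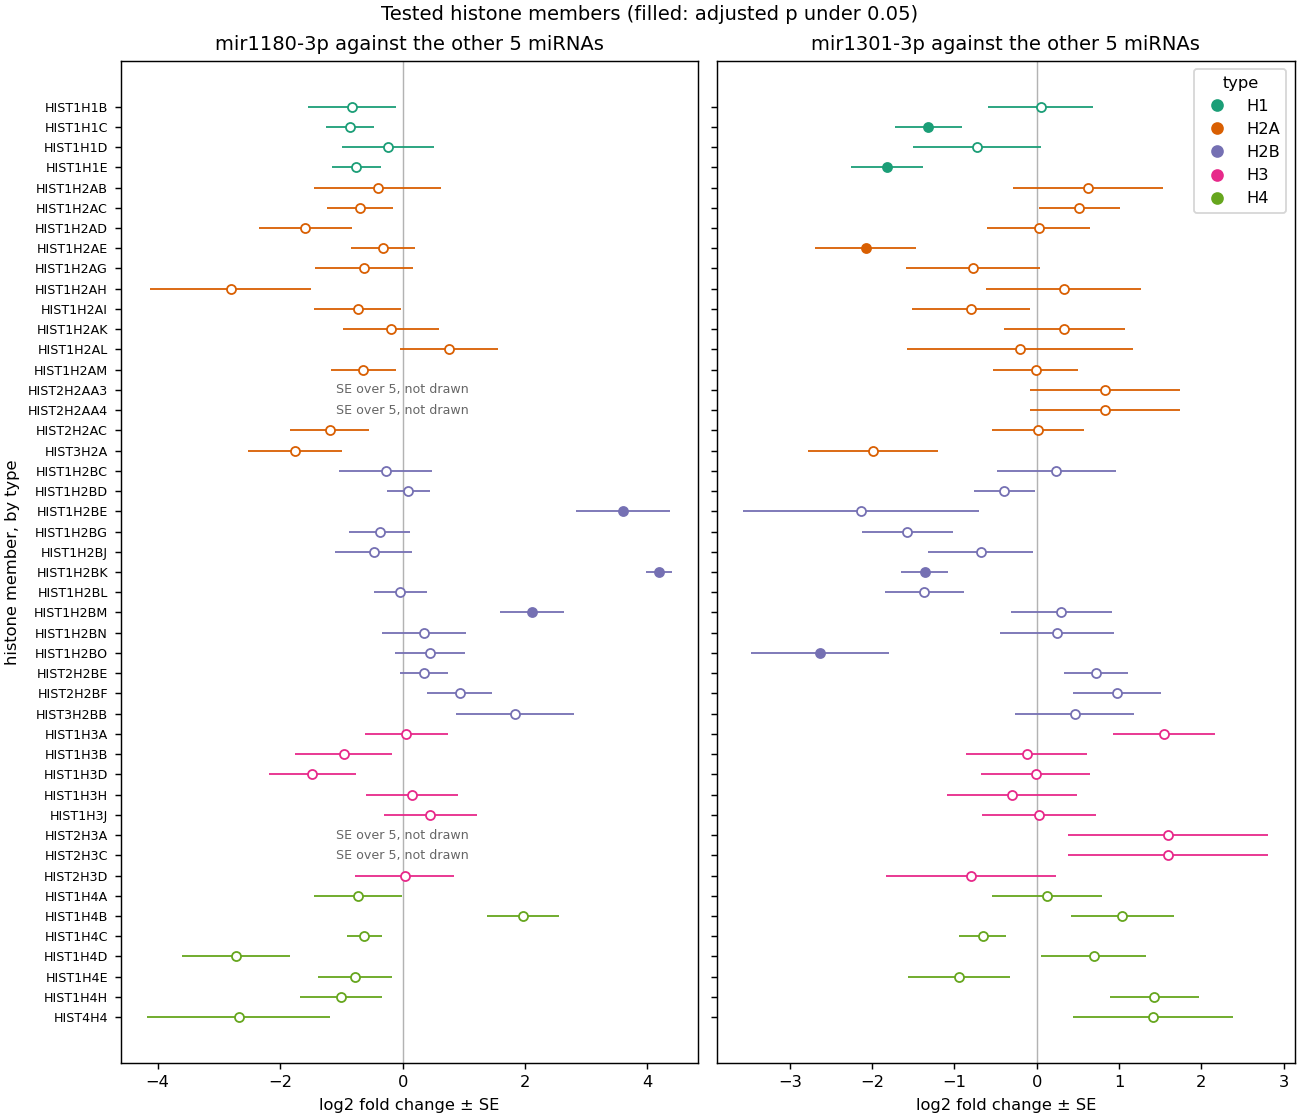
Log2 fold change ± SE of the tested histone genes with mir1180-3p (left) and mir1301-3p (right) against the other 5 miRNAs, coloured by type, with filled points at an edgeR adjusted p under 0.05; members whose SE exceeds 5 are not drawn. Filled points are 3 H2B genes to the right of 0 on the left and 5 genes to the left of 0 on the right.

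With mir550-3p the histone values were mostly positive, but no member was called by edgeR, where 1.20% of all genes were called higher and 0.306% lower. An unadjusted p under 0.05 in the higher direction was found for 11 of 46 members and 9.02% of all genes, and in the lower direction for 4 members and 7.40% of all genes. Those 4 included HIST2H2AA3 and HIST2H2AA4, which were at 0 in both mir550-3p libraries. This pair had equal counts in 16 of 16 libraries, so they are not separate measurements. The median log2 fold change was 0.53 over the members, also with 4 members at 0 set at their bound, and -0.05 over all genes. By type it was 1.08 over the 4 H1 genes, all above 0, 0.53 over H2A, 0.05 over H2B, 0.58 over H3 and 0.75 over H4.

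HIST1H4C was at 2710 and 3516 CPM with mir550-3p, above the 1237 to 2264 CPM of the other 10 libraries of the 6 miRNAs (0.84 ± 0.25; edgeR adjusted p = 0.104). HIST1H1C was likewise above all 10, at 114 and 173 CPM against 13.9 to 90.8 (1.24 ± 0.34; edgeR adjusted p = 0.0730). HIST1H2AM, an H2A gene, was at 12.8 and 12.3 CPM against 1.25 to 6.43 (1.53 ± 0.44; edgeR adjusted p = 0.0917). With HIST1H3J these made 4 members above every reference library, where 5.17% of all genes were. DESeq2 called HIST1H1C, HIST1H2AM and HIST1H4C, at adjusted p of 0.0180, 0.0249 and 0.0291. The edgeR calls made without replicate 2 of mir1260a-5p were all of other members, HIST1H3J among them. Those made without replicate 1 of mir1271-5p held HIST1H2AM and HIST1H4C but not HIST1H1C. The sum over all members was 3619 ± 630 CPM with mir550-3p (SD, n = 2), and the log2 ratio to the other miRNAs was 0.61. Among the 30 S-phase genes, RFC4 alone was called, higher, and the list median was 0.50; the part of this in the histone values was not tested.

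No member was called by edgeR with mir1260a-5p, mir1271-5p or mir3613-5p, where 0.215%, 0.606% and 0.0906% of all genes were called. Unadjusted p under 0.05 were found for 9, 6 and 7 of 46 members in that order, against 5.33%, 9.34% and 14.1% of all genes. The 9 with mir1260a-5p included HIST2H2AA3 with HIST2H2AA4 and HIST2H3A with HIST2H3C. These pairs had equal counts in 16 of 16 libraries and so are not separate measurements. The same 4 entries were among the 6 with mir1271-5p. HIST2H3A and HIST2H3C passed the filter only through replicate 1 of mir1260a-5p, with 14 counts, and replicate 2 of mir1271-5p, with 12. Both had 0 counts in the other replicate of each, so their p-values depend on the filter. DESeq2 called 1 member lower with mir1260a-5p, HIST1H2BK (adjusted p = 0.00983), whose reference holds mir1180-3p, and 1 higher with mir3613-5p, HIST1H2BL (adjusted p = 0.0266). HIST1H2BL was at 8.96 and 16.5 CPM with mir3613-5p against 1.54 to 10.2 in the other 10 libraries (1.51 ± 0.38; edgeR adjusted p = 0.165), so the groups overlapped. The medians over the members were 0.26, -0.05 and 0.28, against 0.02, 0.05 and 0.01 over all genes.

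**Figure D4:**
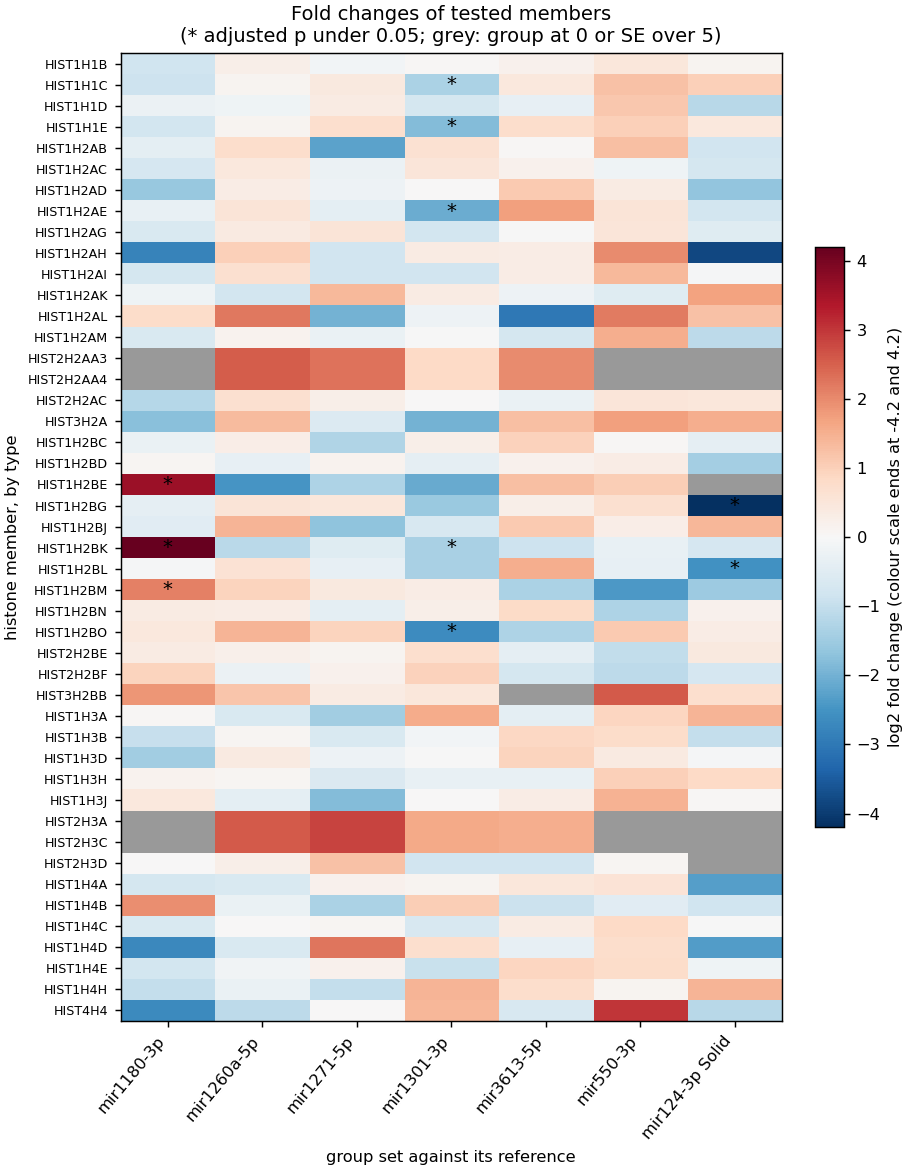
Log2 fold changes of 46 histone genes (rows, by type) for 6 miRNAs against the other 5 and for mir124-3p Solid against the 6 miRNAs (columns); red is higher, blue is lower, asterisks mark edgeR adjusted p under 0.05, and grey marks members at 0 throughout a group or with an SE over 5. The 6 miRNA columns share libraries in their references, and calls are confined to the mir1180-3p, mir1301-3p and mir124-3p Solid columns.

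Against the mean of the 6 miRNAs, the mir124-3p Solid library was tested with the spread of a single library assumed to be that of the other groups. The sequencer of the 12 other libraries is not named, so platform and miRNA may differ together here. Of 52 members tested, 1 was called higher and 2 lower, where 7.31% of 18135 genes were called higher and 1.58% lower. HIST1H3E, an H3 gene, was at 1.27 CPM against 0.07 to 0.61 in the 12 libraries (2.19 ± 0.64; edgeR adjusted p = 0.0406). It had not passed the filter among the 6 miRNAs, where it had at most 8 counts. HIST1H3E entered this fit only through the 16 counts of the Solid library, where it was high, so its call depends on the filter. The H2B gene HIST1H2BG was at 0.24 CPM against 1.54 to 7.70, from which it stood apart (-4.23 ± 1.01; edgeR adjusted p = 0.0134). HIST1H2BL was at 1.03 CPM against 1.54 to 16.5 (-2.55 ± 0.75; edgeR adjusted p = 0.0405). HIST1H2BG alone was called without the mir1180-3p libraries, and leaving out replicate 2 of mir550-3p, or replicate 1 of mir1180-3p, likewise left 1 call; 5 were made without replicate 2 of mir1260a-5p. HIST1H1C, at 147.9 CPM, and HIST1H4C, at 1981 CPM, lay inside the range of the 12 libraries. The median was -0.44 over the members, or -0.25 with 7 members at 0 set at their bound, and -0.12 over all genes.

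The 3 Illumina libraries repeated parts of this pattern and differed in others. HIST1H2BG was at 0.54, 1.28 and 0.88 CPM and HIST1H3E at 1.5, 0.96 and 0.88 CPM, on the same side of the 12 libraries as the Solid one. HIST1H2BL was at 1.80, 2.56 and 1.29 CPM, 2 of them inside the range of the 12. HIST3H2A, an H2A gene of the HIST3 cluster, was at 21.3, 25.9 and 22.2 CPM, against 9.83 in the Solid library and at most 11.3 in the 12 others. HIST1H4C was at 958, 1084 and 1430 CPM, below the Solid library (-0.78 ± 0.36; edgeR adjusted p = 0.157). Of 53 members tested between platforms, HIST1H2BB was called lower, where 19.5% of 18271 genes were. It had 8 counts in the Solid library and 0 in the 3 Illumina libraries (edgeR adjusted p = 0.00880). HIST1H2BB passed the filter only through replicate 2 of mir1180-3p, with 10 counts, and was not tested without that library. No member was called higher, where 2.37% of all genes were. A fit of these 4 libraries alone called 4 members, all higher with Illumina: HIST1H2AD, HIST1H2BO, HIST1H2AH and HIST3H2A (edgeR adjusted p = 0.0100 for the last). HIST1H2AH had 1 count in the Solid library and 16, 9 and 30 in the Illumina ones. It entered this fit only through Illumina libraries, where it was high, so its call depends on the filter. HIST1H2AD overlaps HIST1H3D in RefSeq, and both had 52, 31 and 70 counts in the Illumina libraries, but 10 and 35 in the Solid one. HIST1H3D was at 2.78 CPM with Solid and 1.98 to 3.23 with Illumina. The part of shared reads in the HIST1H2AD call was not tested. Platform and library cannot be told apart with 1 Solid library.

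In each of the 6 groups the replicates lay further apart over the histone members than over all genes, which were not matched to them for counts. The median absolute difference between the 2 libraries of a miRNA, on the scale of log2(CPM + 0.5), was 0.59, 0.75, 0.58, 0.92, 0.81 and 0.42 over the 46 members, in ascending order of the miRNA numbers with mir550-3p last. Over all 17658 genes it was 0.40, 0.48, 0.56, 0.38, 0.46 and 0.36. Of the 46 members, 36 were higher in replicate 2 of mir1260a-5p, 34 in that of mir1301-3p and 38 in that of mir3613-5p, against 49.6%, 50.7% and 53.9% of all genes. In the other groups the counts were 20 for mir1180-3p, 19 for mir1271-5p and 26 for mir550-3p, against 51.0%, 52.2% and 56.8% of all genes. HIST1H1D, a linker histone gene, split widely and in no fixed direction. Its CPM was 4.18 and 31.6 with mir1180-3p, 28.2 and 6.60 with mir1260a-5p, 39.6 and 3.12 with mir1271-5p, and it was called in no comparison.

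Replacement histone genes, which are expressed outside S phase and give polyadenylated mRNAs, were examined beside the members. None of 12 was called by edgeR with mir1180-3p, mir1260a-5p, mir1271-5p or mir3613-5p, and their median with mir1180-3p was 0.02. H3F3A, which encodes the variant H3.3, was called higher with mir1301-3p (1.36 ± 0.25; edgeR adjusted p = 0.00657) and lower with mir550-3p (-1.35 ± 0.31; edgeR adjusted p = 0.0404). With mir124-3p Solid 4 were called higher, H1F0, H2AFY2 and H3F3C among them, and H3F3A lower. The Illumina libraries of the same miRNA lay on the other side for H3F3C, at 33.1 CPM in the Solid library and 0.23 to 0.45 in the Illumina ones (-6.57; edgeR adjusted p = 1.2e-07), and for H3F3A, at 52.3 and 752 to 1105 CPM (4.07; edgeR adjusted p = 8.8e-06). H1F0, a linker histone of differentiated cells, had the largest of the 4 higher values in the Solid library, at 2.44 ± 0.40 (edgeR adjusted p = 0.001).

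Of 41 genes that act in the transcription, 3′ processing or decay of histone mRNAs, none was called by edgeR with mir1180-3p, mir1260a-5p, mir3613-5p or mir550-3p. NFYA, a subunit of the factor that binds CCAAT, was called higher with mir1271-5p (1.22 ± 0.26; edgeR adjusted p = 0.0346). POU2F1, which binds the octamer, was at 55.2 and 66.0 CPM with mir1301-3p, above the other 10 libraries, of which the highest held 35.0 CPM (1.22 ± 0.27; edgeR adjusted p = 0.0139). CCNE1, the cyclin E whose kinase activates histone gene transcription, and SNRPB, a core spliceosomal Sm protein also found in the U7 particle, were called lower there (-1.43 ± 0.36 and -1.12 ± 0.36; edgeR adjusted p = 0.0204 and 0.0459). SLBP itself was not called; its log2 fold changes were -0.12 with mir1180-3p, -0.85 with mir1301-3p and 0.67 with mir550-3p.

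With mir124-3p Solid, 9 of the 41 genes were called higher and 0 lower, among them CCNE1 (2.84 ± 0.32; edgeR adjusted p = 3.5e-05) and ZNF473, a component of U7-dependent processing (1.83 ± 0.33; edgeR adjusted p = 0.00190). Of the 30 S-phase genes, 10 were called higher and 0 lower in the same comparison, with a list median of 0.97, and the median of the histone members there was -0.44. Of 22 histone chaperones and assembly factors, ASF1A and ASF1B, which carry H3 and H4, were called higher with mir1301-3p, and IPO4, which imports them into the nucleus, with mir1271-5p (2.98 ± 0.52; edgeR adjusted p = 0.0121). IPO4 was at 62.7 and 1095 CPM in the mir1271-5p libraries, the lower inside the 20.9 to 323 CPM of the other 10. The median of the 22 with mir1301-3p was -0.67, opposite in sign to the ASF1A and ASF1B values and against -0.02 over all genes. With mir124-3p Solid 5 of the 22 were called higher, ASF1B among them, and ATRX, which deposits H3.3, lower. None of the 22 was called with mir1180-3p, mir1260a-5p, mir3613-5p or mir550-3p.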

How the data were processed

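The authors deposited raw counts per gene for 16 libraries, which were used as counts without rounding; TopHat2 and hg19 are named in the submitters' processing notes, and no source used here gives the counting tool, its strand setting or its treatment of reads that map to several genes. Near-identical histone genes can therefore share or lose reads. HIST2H2AA3 with HIST2H2AA4 and HIST2H3A with HIST2H3C had equal counts in 16 of 16 libraries and HIST2H4A with HIST2H4B in 13, and HIST1H2AD overlaps HIST1H3D in RefSeq (559 and 627 counts).

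Libraries were grouped by the miRNA in their titles. edgeR 4.0.16 in R 4.3.3 fitted group means over 12 libraries (6 miRNAs), 13 (with mir124-3p Solid) or 16 (platforms), after filterByExpr with a minimum count of 10 and TMM scaling (trimmed mean of M values), with robust quasi-likelihood tests and Benjamini-Hochberg adjustment over all genes. Intervals of shares are 95% Wilson intervals. Errors of fold changes are standard errors taken from the test statistic. The alternatives were DESeq2 1.42.0, upper-quartile scaling, no filter, a replicate block, leaving out each library and, chosen after seeing the data, leaving out copies that share reads, HIST1H2BK, HIST1H4C or the mir1180-3p libraries. On simulated data with 100 genes changed 4-fold, between 83% and 89% were recovered for the 6 miRNAs. The share was 51% for mir124-3p Solid, 36% for the platforms and 42% for any difference. Of 100 genes changed 2-fold, at most 20% were recovered. The changed genes were drawn only from genes with a higher CPM than most histone members, so these shares do not hold for the scarce members.

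The members and the gene lists were chosen with earlier results of these data known, and the lists were written from general knowledge. Named members are, per comparison, those called (at most 8, by adjusted p), the 3 of each type with the highest median CPM, and the 5 reported as polyadenylated; of the other lists at most 3 called genes per comparison were named. HIST1H2AH, HIST1H4I, HIST1H3J, HIST1H4D, HIST1H3A, HIST1H2BF, SLBP, ATRX, H3F3A with mir124-3p and members named only under an alternative, for non-overlapping groups or for shared reads were chosen after their values were seen. One result among the S-phase genes is not reported here.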

Additional observations from a re-analysis of the deposited data

How the results depend on the processing

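HIST1H2BK was called higher with mir1180-3p under every alternative that kept the mir1180-3p libraries. DESeq2 called 1 member with mir1260a-5p, 1 with mir3613-5p, 3 with mir550-3p, 9 for any difference and 0 between platforms. Without the filter 1 was called with mir550-3p and 2 between platforms. Upper-quartile scaling called 1 for any difference; it moved the median of all genes from -0.07 to 0.09 for mir1180-3p, from 0.05 to -0.19 for mir1271-5p, from 0.01 to -0.18 for mir3613-5p, from -0.05 to -0.17 for mir550-3p and from -0.12 to -0.30 for mir124-3p Solid. Over all genes, DESeq2 called 492 higher and 201 lower with mir1180-3p (339 and 27 by edgeR), 60 and 12 with mir1260a-5p (38 and 0), 155 and 8 with mir1271-5p (107 and 0), 104 and 38 with mir3613-5p (16 and 0), 542 and 338 with mir550-3p (212 and 54), 1833 and 845 with mir124-3p Solid (1326 and 287) and 725 and 2593 between platforms (433 and 3563), and 3378 genes for any difference (1010). Upper-quartile scaling gave 50 genes with mir1271-5p, 9 with mir3613-5p, 1663 for any difference and 997 higher and 664 lower with mir124-3p Solid. The 4 mir124-3p libraries alone gave 4. Without the mir1180-3p libraries 0 were called for any difference (HIST1H2BK adjusted p = 0.274, HIST1H1E 0.0689 by edgeR) and 1 with mir124-3p Solid. The replicate numbers showed no pairing common to all groups (15 correlations of deviations between groups, -0.14 to 0.36 with a median of 0.03). A shift shared by some groups is not excluded. With a replicate block 1 member was called with mir124-3p Solid, 7 with mir1301-3p and 3 with mir1180-3p. The block raised the calls over all genes with mir1301-3p from 2815 to 3738. Counting shared copies once changed no count of members. Leaving out single libraries gave 1 to 4 called members with mir1180-3p, 0 to 0 with mir1260a-5p and mir3613-5p, 0 to 1 with mir1271-5p, 0 to 8 with mir1301-3p, 0 to 3 with mir550-3p, 1 to 5 for any difference, 1 to 5 with mir124-3p Solid and 0 to 1 between platforms. The counts were 1 without mir1180-3p replicate 2 for mir1180-3p and 0 without mir1301-3p replicate 1 for mir1301-3p; the causes were not tested.

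The log2 ratio of summed CPM ranged, over single libraries left out, from 0.35 to 0.64 with mir1180-3p, -0.54 to -0.047 with mir1260a-5p, -0.53 to 0.0007 with mir1271-5p, -0.98 to -0.82 with mir1301-3p, -0.14 to 0.04 with mir3613-5p, 0.42 to 0.78 with mir550-3p, -0.19 to -0.05 with mir124-3p Solid and -0.76 to -0.54 between platforms. For mir1180-3p it was -0.55 without the 5 polyadenylated members, -0.55 without HIST1H2BK and -0.42 without HIST1H4C and HIST1H2BK. Without those 2 genes it was -0.012 with mir1260a-5p, 0.15 with mir124-3p Solid and -0.19 between platforms. With no scaling factor it was -0.52 with mir1301-3p and -0.93 between platforms. Depth limits the members tested: 24 of 70 could not be tested among the 6 miRNAs.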
